A study of Mus musculus with 6 samples.

Results

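A set of 10 genes of p53 signalling and growth arrest, Cdkn1a, Gadd45a, Gadd45b, Gadd45g, Mdm2, Ccng1, Trp53inp1, Bax, Phlda3 and Trp53, was followed in gastrocnemius, the large calf muscle, of mice that carry extra OGG1 in mitochondria. They were taken by symbol, all 10 were found, and the deposited tables hold 35491 entries with a symbol. The set was chosen by measured values of this same contrast: Cdkn1a and Gadd45a were among the genes that differed between the groups. With them came 8 genes as known p53 targets, relatives of Gadd45a or p53 itself. The Ogg1Tg against Control values of the 10 genes are therefore a description: intervals and SEs show the spread between libraries, and calls on these genes restate how the set was chosen.

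The study compared 3 Control and 3 Ogg1Tg mice, all male, 20 weeks old, fed chow, untreated and of C57BL/6J background. Ogg1Tg mice carry human OGG1-1a, a repair enzyme for the oxidised base 8-oxoguanine, joined to a mitochondrial targeting signal and driven by the CMV/AG promoter, which is not restricted to muscle. The number of founder lines and the litters of the mice were not given in the sources used here. This comparison asks how the muscle transcripts of the 2 genotypes differ. Values below are reads divided by 1 factor per library ("values"), and fold changes are differences of log2(value + 1), Ogg1Tg minus Control. They come from limma, a linear model fitted to all 23312 genes with a mean value of at least 1. A gene was called when its Benjamini-Hochberg adjusted p was under 0.05.

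Libraries held 45189860 to 56126407 reads in named genes, and the 10 genes had 156 to 44881 reads each in every library, so all 10 passed the filter on low values. Mouse Ogg1 measured 154, 225 and 193 in Control and 176, 201 and 193 in Ogg1Tg libraries; the human transgene was not analysed here, so the labels were not checked by it. The 8 markers of skeletal muscle fibres were expressed in all 6 libraries. Ogg1Tg replicate 3 stood apart. Its 5 B lymphocyte markers summed to 7774, against 83.2 to 101 in Control and 88.9 and 99.2 in the other Ogg1Tg libraries, and its 6 T lymphocyte markers to 2808, against 19.8 to 58.7 elsewhere. Its 6 adipocyte markers summed to 11844.5, against 3764 to 4885 elsewhere, and its muscle fibre markers to 0.623 times the Control mean, with each of the 8 at its lowest there. Macrophage markers summed to 5203 in it against 1819 to 3668 elsewhere, and satellite cell markers to 199 against 369 to 411. Ms4a1, Cd3e, Cd3g, Cd4 and Trac were at 0 in at least 1 of the libraries, and among neutrophil markers Ly6g and Elane were at 0 in all 6. The part of these cells in the values of the 10 genes was not tested, and each gene is also given without that library.

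The protein p53, encoded by Trp53, is a transcription factor that is stabilised after DNA damage and other stress and then raises genes that stop the cell cycle, aid repair or start cell death. Mdm2 encodes the ubiquitin ligase that degrades p53 and is itself a p53 target, which closes a negative feedback loop. Cdkn1a encodes p21, an inhibitor of cyclin-dependent kinases, and the Gadd45 genes encode small stress proteins that bind cell cycle and p38 pathway kinases. In skeletal muscle, whose fibres do not divide, Cdkn1a and Gadd45a are also known as genes that respond to denervation, fasting and immobilisation, and Gadd45a as a gene that the transcription factor ATF4 can raise.

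Promoter windows from RefSeq (GRCm38.p6, 250 bases before to 50 after each start site) were matched for 9 of the 10 genes, with 10 windows because Cdkn1a has 2 start sites; Trp53inp1 had none. They were searched on both strands for the p53 half-site, a palindromic 10-base word, for p53 elements made of 2 half-sites, and for the ATF4-C/EBP element TGATGNAA. No window of the 10 genes held 2 exact half-sites without a spacer, a pattern found in 3 of 32851 windows of all genes (0.00913%). With at most 1 base off outside the C and G of each core, an allowance chosen after the sequences were seen, 2 of the 10 windows held the element, against 22 of all windows (0.067%). With exact half-sites and a spacer of up to 13 bases the Cdkn1a window alone held one, against 24 of all windows (0.0731%), and its second half-site is the first half-site of the element printed here. Both elements are shown 5′ to 3′ along the gene, with the element in capitals, because Cdkn1a was higher and Ccng1 was not in Ogg1Tg muscle.
Cdkn1a: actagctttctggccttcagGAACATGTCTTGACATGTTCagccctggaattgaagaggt
Ccng1: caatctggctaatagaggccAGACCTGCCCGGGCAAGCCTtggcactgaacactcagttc

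The Cdkn1a element lies on chr17:29090928-29090947, 51 to 32 bases before the more distal of the gene's start sites, and the Ccng1 element on chr11:40755462-40755481, 195 to 176 bases before its start. Single half-sites were in windows of 6 of the 9 genes, against 2745 of 32851 windows of all genes (8.36%). Apart from Cdkn1a and Ccng1, these 4 genes held the half-sites printed next, each read along its gene, so that the words can be compared with the element of Cdkn1a.
Mdm2: GAACTTGCCT
Trp53: GGACTTGCCC
Bax: AGGCAAGCTT
Gadd45a: GGGCTAGCCC

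The Gadd45a half-site, 40 to 31 bases before the RefSeq start, lies inside the gene as GENCODE M21 draws it. The ATF4-C/EBP element was in 1304 of all windows (3.97%) and in 1 of the 10, that of Gadd45g, on chr13:51846574-51846581 on the strand opposite to the gene. It is shown along the gene, in capitals, because Gadd45g was lower in Ogg1Tg muscle while its relative Gadd45a, whose window has no match, was higher.
Gadd45g: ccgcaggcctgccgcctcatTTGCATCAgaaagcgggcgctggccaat

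These matches describe letters in a short window; they are not evidence of binding, and elements elsewhere in the genes were not searched here.

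Of the 10 genes, Cdkn1a and Gadd45a are the 2 called higher, which is how the set was chosen; 0 were called lower. Over all genes 0.545% were called (0.395% higher, 0.15% lower), and nothing is read from the count of 2. For the lists described further on, the share of all genes called was 0.532% with edgeR (0.425% higher, 0.107% lower). With DESeq2 it was 3.53% (2.07% higher, 1.46% lower), taken over the 17623 genes that DESeq2 gave an adjusted p. The share was 1.86% with limma without Ogg1Tg replicate 3 (0.986% higher, 0.877% lower). The groups did not overlap for 7 of the 10, 4 with Ogg1Tg higher and 3 with Ogg1Tg lower, where 18.3% of all genes tested did not overlap (7.03% higher, 11.3% lower). Of the 10, 5 had a log2 fold change above 0, as had 47.2% of all genes. The median log2 fold change of the 10 was 0.05, against -0.02 over all genes tested, and the single values ran from -1.42 to 2.89. In bulk muscle, fewer cells of a type and less RNA per cell cannot be told apart, for these genes and those below.

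Cdkn1a, the gene of the cell cycle inhibitor p21, had values of 646, 653 and 538 in Control (replicates 1 to 3, as in each list that follows) against 3004, 1904 and 1467 in Ogg1Tg mice. Every Ogg1Tg library lay above every Control library, with Ogg1Tg replicate 1 the highest and replicate 3 the lowest of its group. The log2 fold change was 1.73 ± 0.24 (SE, n = 3 per group), a fold of 3.33, and 1.97 ± 0.18 without Ogg1Tg replicate 3. Among 23312 genes it ranked 596 from the highest. In GRCm38, Cdkn1a spans 29090976 to 29100727 of chromosome 17, plus strand. The call that put Cdkn1a in the set was lost when Control replicate 1, 2 or 3 was left out and when limma was run without a variance trend. Its log2 fold change ranged from 1.45 to 2.05 over 17 alternative fits.

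Gadd45a, a stress-induced gene of growth arrest, had values of 251, 255 and 226 in Control against 2039, 1149.6 and 2559 in Ogg1Tg mice. The lowest Ogg1Tg library was well above the highest Control library, and the 3 Control libraries lay within 0.17 log2 units of each other. The log2 fold change was 2.89 ± 0.26 (SE, n = 3 per group), a fold of 7.44, and 2.65 ± 0.21 without Ogg1Tg replicate 3. It ranked 109 from the highest of all genes tested. Gadd45a spans 67035096 to 67037457 of chromosome 6, minus strand. The call that put Gadd45a in the set was lost without a variance trend. Both calls were lost without Ogg1Tg replicate 3 when the filter on low values used all 6 libraries.

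The order of the Ogg1Tg mice differed between these 2 genes. Gadd45a was highest in replicate 3 and lowest in replicate 2, and Cdkn1a was highest in replicate 1 and lowest in replicate 3. In replicate 3 Gadd45a lay 3.39 log2 units above the Control mean and Cdkn1a 1.26. E230016M11Rik, which overlaps Gadd45a on the opposite strand, measured 118, 97.9 and 71.8 in Control and 161, 120.4 and 228 in Ogg1Tg libraries. These are 55 to 85 reads in Control and 91 to 227 in Ogg1Tg libraries, against 173 to 182 and 869 to 2544 for Gadd45a. The strand setting of the counting was not given in the sources used here. Reads of the 337 exonic bases that the pair shares therefore cannot be assigned to one of them with certainty. The same holds for 273 exonic bases that Cdkn1a shares with AC167363.2 on the opposite strand, and for 192 that Bax shares with Gm45808 on its own strand.

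**Figure D1:**
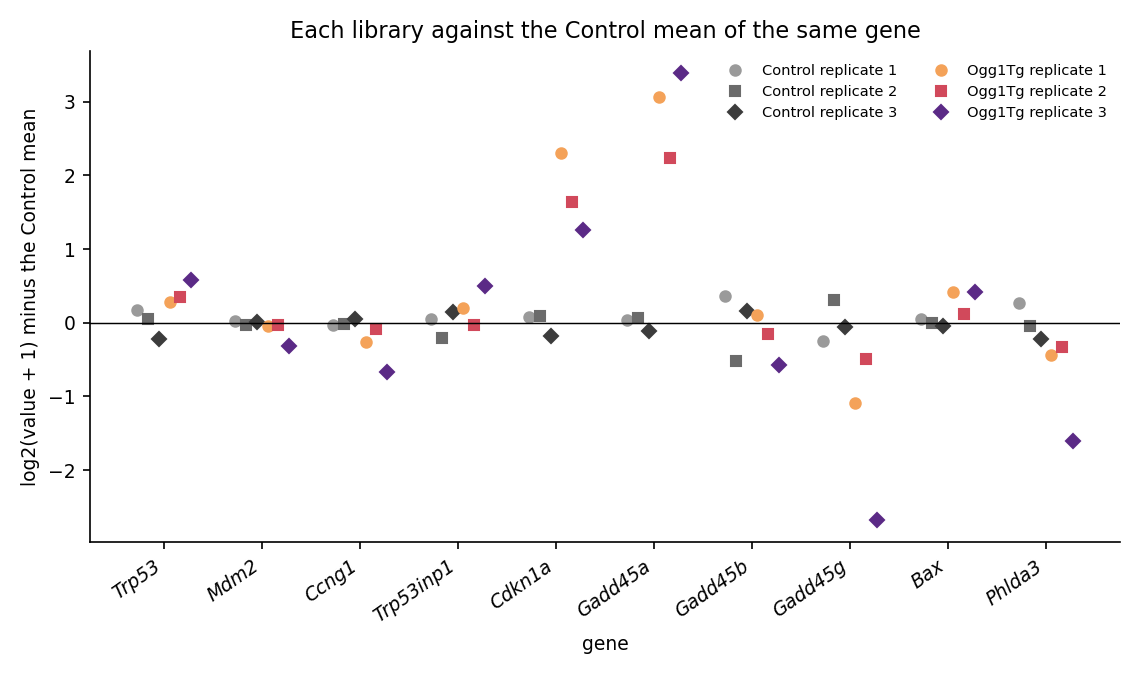
Each point is 1 library, placed by its log2(value + 1) minus the Control mean of the same gene (vertical axis), for the 10 genes (horizontal axis). Ogg1Tg libraries lie 1.26 to 2.30 above the Control mean for Cdkn1a and 2.23 to 3.39 for Gadd45a, and Ogg1Tg replicate 3 lies at -2.67 for Gadd45g and -1.60 for Phlda3.

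The relatives of Gadd45a had lower or similar values in Ogg1Tg muscle. Gadd45b, which like Gadd45a is an early stress gene, measured 881, 481 and 765 in Control and 739.8, 618 and 464 in Ogg1Tg libraries. The groups overlapped, and the log2 fold change was -0.20 (95% interval from -0.77 to 0.37). It was -0.02 without Ogg1Tg replicate 3, -0.03 without Control replicate 1 and -0.46 without Control replicate 2. Gadd45g, the paralogue with the highest level per length in Control muscle, measured 885, 1301 and 1013 in Control and 497, 750.1 and 164 in Ogg1Tg libraries.

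All Ogg1Tg libraries lay below all Control libraries for Gadd45g, and replicate 3 was far below the other 2. Its log2 fold change was -1.42 (95% interval from -2.47 to -0.36), and -0.79 ± 0.20 (SE) without Ogg1Tg replicate 3. Within the Ogg1Tg group the libraries spread over 2.19 log2 units for Gadd45g, against 1.15 for Gadd45a and 0.67 for Gadd45b.

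Levels of different genes can be set side by side only per length, here as scaled reads per kb of exon in GENCODE M21, which may not be the annotation used for counting. On that scale Gadd45a made up 9.81%, 9.27% and 8.69% of the sum of the 3 Gadd45 genes in Control, against 56.5%, 38.8% and 77.1% in Ogg1Tg mice. Gadd45g made up 52.0% to 71.3% in Control and 7.43% to 38.1% in Ogg1Tg libraries. The sum itself was 1493 ± 55.6 per kb in Control and 1869 ± 183 per kb in Ogg1Tg muscle (SD, n = 3). Gadd45a was thus the lowest of the 3 in every Control library and the highest of the 3 in every Ogg1Tg library, by a small margin in replicate 2 (652 against 639 per kb for Gadd45g).

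**Figure D2:**
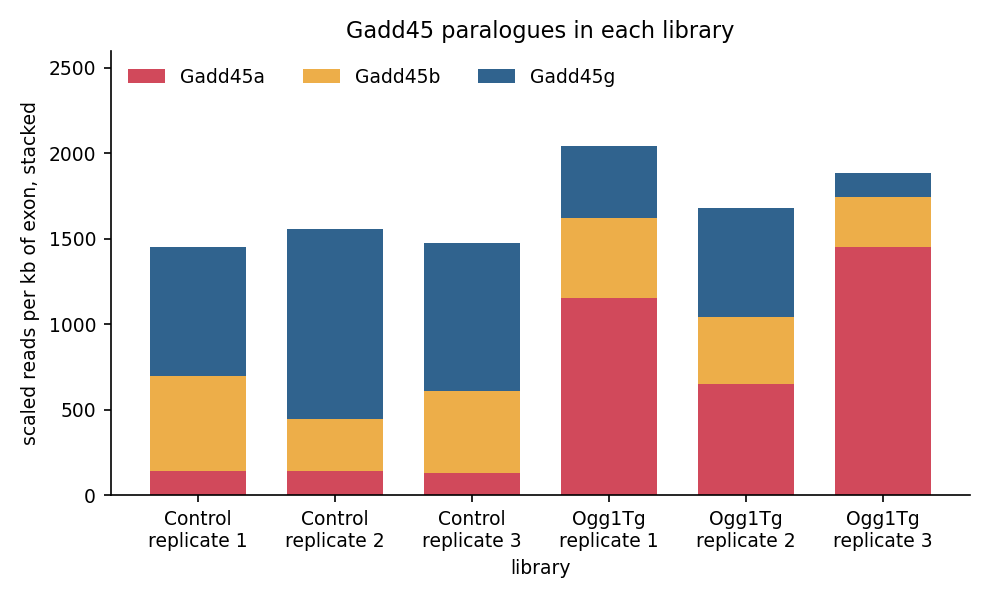
Stacked bars give scaled reads per kb of exon (vertical axis) of Gadd45a, Gadd45b and Gadd45g in each of the 6 libraries (horizontal axis). The Gadd45a part runs from 128 to 144 per kb in Control and from 652 to 1451 per kb in Ogg1Tg libraries, while the Gadd45g part is smaller in each Ogg1Tg library than in any Control library.

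The genes of the p53 feedback loop showed small differences. Trp53 measured 928, 857 and 705 in Control and 1001, 1049 and 1234 in Ogg1Tg libraries. The groups did not overlap, though the highest Control and lowest Ogg1Tg library were close, and the log2 fold change was 0.40 (95% interval from 0.06 to 0.75), a fold of 1.32, and 0.31 without Ogg1Tg replicate 3. Mdm2, whose transcript p53 raises, measured 5066, 4911 and 5009 in Control and 4845, 4915 and 4001 in Ogg1Tg libraries.

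For Mdm2 the Control libraries and Ogg1Tg replicates 1 and 2 lay close together, with replicate 3 lower. The log2 fold change was -0.13 (95% interval from -0.41 to 0.16), -0.03 without Ogg1Tg replicate 3, and of the other sign, at 0.02, with quantile normalization. Ccng1, a cyclin gene that is among the most regular targets of p53, measured 55581, 56158 and 58579 in Control and 47225, 53318 and 35879.5 in Ogg1Tg libraries.

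Every Ogg1Tg library had less Ccng1 than any Control library, with replicate 3 the lowest. The log2 fold change was -0.34 (95% interval from -0.82 to 0.14) and -0.18 ± 0.11 (SE) without that library. Trp53inp1, a p53-induced nuclear protein gene that modulates p53 activity and autophagy, measured 1245, 1045 and 1329 in Control and 1385, 1179 and 1695 in Ogg1Tg libraries. These groups overlapped, with a log2 fold change of 0.23 (95% interval from -0.15 to 0.60). It was 0.09 without Ogg1Tg replicate 3, 0.13 without Control replicate 2 and 0.35 without Ogg1Tg replicate 2.

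The death-related genes had differences of opposite sign. Bax, which opens the outer mitochondrial membrane in apoptosis, measured 227, 218 and 211 in Control and 293, 237 and 294 in Ogg1Tg libraries. The groups did not overlap, and the log2 fold change was 0.32 (95% interval from -0.08 to 0.71), and 0.27 without Ogg1Tg replicate 3. Phlda3, a p53 target that inhibits AKT signalling, measured 8767, 7032 and 6215 in Control and 5355, 5781 and 2393 in Ogg1Tg libraries.

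Phlda3 was lower in each Ogg1Tg library than in any Control library, most of all in replicate 3. Its log2 fold change was -0.79 (95% interval from -1.49 to -0.09), and -0.38 ± 0.13 (SE) without Ogg1Tg replicate 3. Of the 10 genes, Gadd45a, Trp53, Trp53inp1 and Bax had their highest value in that library, and Gadd45b, Gadd45g, Mdm2, Ccng1 and Phlda3 their lowest. In the same library the markers of lymphocytes, adipocytes and muscle fibres given at the start were at their extremes.

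The remaining genes are spread over the genome (GRCm38, GENCODE M21). Gadd45b (80930073 to 80932204, plus strand) and Mdm2 (117688875 to 117710758, minus strand) are on chromosome 10, and Ccng1 (40748552 to 40755311, minus strand) and Trp53 (69580359 to 69591873, plus strand) on chromosome 11. Gadd45g is on chromosome 13 (51846678 to 51848468, plus strand), Trp53inp1 on chromosome 4 (11156431 to 11174379, plus strand), Bax on chromosome 7 (45461697 to 45466898, minus strand) and Phlda3 on chromosome 1 (135766119 to 135769136, plus strand).

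Per kb of exon, Ccng1 had the highest level of the 10 genes in Control muscle, at 16165 ± 453 (SD, n = 3), followed by Phlda3 at 4707 ± 836. Mdm2 at 983 ± 15.4 and Gadd45g at 909 ± 182 came next and did not differ beyond their spread, and Gadd45b followed at 446 ± 129. Trp53 at 205 ± 28.2, Trp53inp1 at 186 ± 22.5 and Cdkn1a at 172 ± 18.2 had overlapping spreads. Within libraries Trp53 was above Cdkn1a in all 3 (229, 212 and 174 against 182, 184 and 151), while Trp53inp1 changed places with both. Bax at 139 ± 5.09 and Gadd45a at 138 ± 8.89 could not be ordered. In Ogg1Tg muscle Ccng1 and Phlda3 were again first, at 12948 ± 2520.0 and 2893 ± 1184. Gadd45a at 1086 ± 404 and Mdm2 at 902 ± 100.01 did not differ beyond their spread. Cdkn1a at 598 ± 223 was above Gadd45b at 382 ± 87.1 in all 3 Ogg1Tg libraries. Their levels there were 845, 536 and 413 against 466, 389 and 292. Gadd45g at 401 ± 251 could not be ordered with them, and in replicate 2 Gadd45g (639) was above Cdkn1a (536). Trp53 at 271 ± 30.5, Trp53inp1 at 219 ± 40.1 and Bax at 174 ± 20.8 had the lowest means.

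The genes whose pattern over the 6 libraries was most like that of Cdkn1a, by Pearson correlation of log2(value + 1), were Prmt3, Extl1, Yars, Alg9 and Tceal7, with r from 0.993 to 0.997. Their log2 fold changes ran from 0.25 for Alg9 to 1.22 for Tceal7. Those most like Gadd45a were Rcc2, Gpat3, Ndrg4, Cyp4a12b and Dnm2, with r from 0.991 to 0.999. Rcc2 measured 528, 559.5 and 501 in Control and 1378, 1052 and 1584 in Ogg1Tg libraries. Cyp4a12b had no Control reads and a value of 2.65 to 4.02 in Ogg1Tg libraries. There 1 read is a value of 1.01 to 1.32, so the match of Cyp4a12b rests on a few reads per library. Gadd45a and Cdkn1a correlated with each other at 0.908. Among the other members of the set, Bax correlated with Gadd45a at 0.930 and with Cdkn1a at 0.818. Trp53 stood at 0.844 with Gadd45a and 0.692 with Cdkn1a, and Trp53inp1 at 0.651 and 0.361. Gadd45b, Gadd45g, Mdm2, Ccng1 and Phlda3 correlated negatively with both. Their values ran from -0.838 to -0.352 with Gadd45a and from -0.549 to -0.126 with Cdkn1a. The libraries behind all these values form 2 genotype groups.

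Another 46 p53 targets form a list drawn from textbook knowledge that leaves out the 10 genes. It is a selection: Sesn2 is also counted among the ATF4 and CHOP stress genes below, and Gdf15 only there. Of the 46, 1 rose, 1 fell and 44 did not pass limma. At an unadjusted p under 0.05 there were 7 higher and 3 lower, where 11% of all genes tested lay (4.24% higher, 6.78% lower). The median log2 fold change of the list was 0.07, against -0.02 over all genes tested. Of the 46, 30 (65.2%) lay within 0.5 of 0 on the log2 scale, as did 69.6% of all genes tested. A log2 fold change above 1 was seen for 5 and below -1 for 2, against 1991 and 1018 of 23312 genes. The groups did not overlap for 12 (26.1%), 6 higher and 6 lower, against 18.3% of all genes tested. With edgeR on recovered reads 2 of the 46 were called, 1 higher and 1 lower (0.532% of all genes). With DESeq2 5 were called, 4 higher and 1 lower (3.53% of the 17623 genes with a DESeq2 adjusted p).

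The one that rose was Sesn2, a sestrin gene that p53 and ATF4 can both raise and whose product restrains mTORC1. It measured 155, 139.9 and 131 in Control and 1557, 1095 and 1208 in Ogg1Tg libraries, with no overlap. The log2 fold change was 3.16 ± 0.18 (SE, limma adjusted p = 8.47e-05), a fold of 8.93, and Sesn2 was called in all 17 alternative fits. This list too was drawn up with earlier results of these data known, so the call is no independent evidence. The one that fell was Polk, a DNA polymerase that copies past damaged bases, at 1313, 1204 and 1327 in Control and 373, 623 and 386 in Ogg1Tg libraries. Its log2 fold change was -1.51 ± 0.20 (SE, limma adjusted p = 0.0135). Polk was not called without any 1 of the 3 Control libraries or Ogg1Tg replicate 1 (limma adjusted p from 0.0675 to 0.120), without a variance trend (limma adjusted p = 0.164), or without Ogg1Tg replicate 3 when the filter on low values used all 6 libraries (limma adjusted p = 0.150).

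Other textbook targets that did not pass limma were chosen for mention after their values were seen. Zmat3, an RNA-binding protein gene, measured 1574 ± 28.9 in Control and 1648 ± 212 in Ogg1Tg muscle (SD, n = 3). Sesn1, the sestrin most closely tied to p53, measured 1094 ± 110.0 and 1240 ± 86.2, and Eda2r, a receptor gene of the TNF family, 1877 ± 424 and 2218 ± 434. The death gene Bbc3 measured 71.2 ± 5.92 and 112 ± 16.2, with no overlap (limma adjusted p = 0.39). Pmaip1, which encodes the death protein NOXA and had the highest log2 fold change of the 46 at 3.72, had 0 reads in each Control library and 2, 5 and 92 reads in Ogg1Tg replicates 1, 2 and 3, most of them in the library with the lymphocyte markers (limma adjusted p = 0.29).

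**Figure D3:**
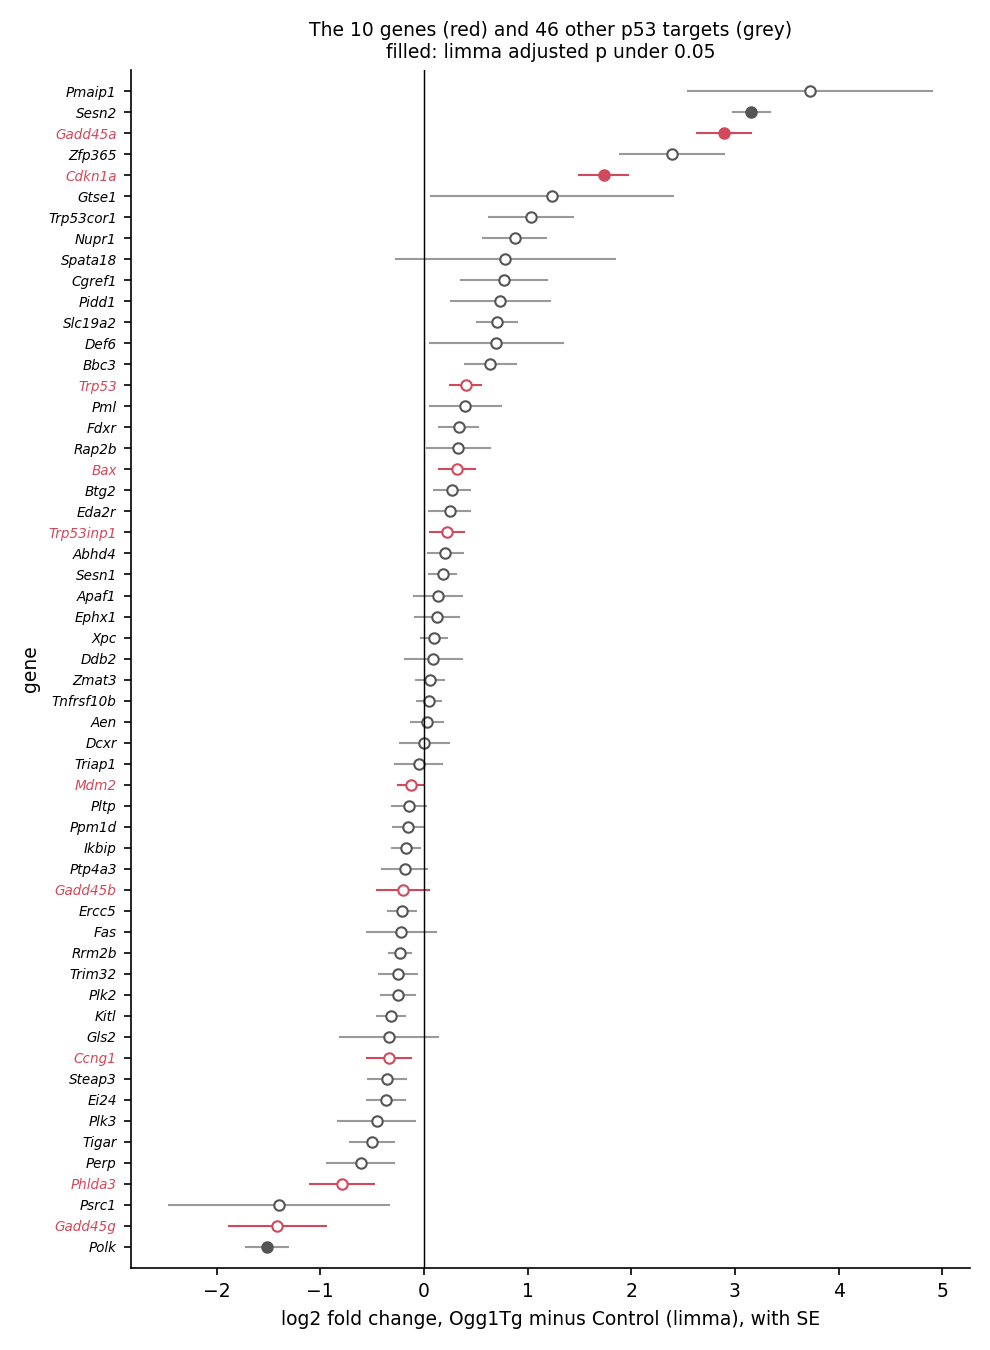
Points give the log2 fold change of Ogg1Tg minus Control from limma (horizontal axis) with its SE as a line, for the 10 genes in red and 46 other p53 targets in grey, ordered by value on the vertical axis. Filled points passed an adjusted p of 0.05: Sesn2, Gadd45a and Cdkn1a on the right and Polk on the left, with most other targets within 0.5 of 0.

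None of 21 regulators of p53 was called with limma, with 1 higher and 1 lower at an unadjusted p under 0.05. With edgeR 0 were called and with DESeq2 1, Hipk2, which was lower (DESeq2 adjusted p = 0.0037). Hipk2, a kinase that phosphorylates p53, measured 17081, 16531 and 15292 in Control and 9191, 11160.0 and 6140.03 in Ogg1Tg libraries, and did not pass (limma adjusted p = 0.14). Without Ogg1Tg replicate 3 it was called lower (limma adjusted p = 0.012), though not when the filter on low values used all 6 libraries (limma adjusted p = 0.141). Quantile normalization (limma adjusted p = 0.042) and edgeR without that library (edgeR adjusted p = 0.018) called Hipk2 lower too, so it was called in 4 of 17 alternative fits. Ep300, a histone acetyltransferase that acts with p53, measured 7467 ± 416 and 6194 ± 988 (SD, n = 3). The list's median log2 fold change was -0.11.

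Among 20 inhibitors of cyclin-dependent kinases and regulators of the G1 phase, limma and edgeR called 0 and DESeq2 0, with 4 higher and 1 lower at an unadjusted p under 0.05 in limma. Over all genes tested 4.24% were higher and 6.78% lower at that threshold. The list's median log2 fold change was 0.27, and 0.07 without Ogg1Tg replicate 3. The groups did not overlap for 7 of the 20 (35%), 4 higher and 3 lower, against 18.3% of all genes tested. Cdkn1b, which encodes p27, measured 1913 ± 64.4 in Control and 2410.4 ± 277 in Ogg1Tg muscle (SD, n = 3, limma adjusted p = 0.38). Rbl2, a member of the retinoblastoma family, measured 3686 ± 68.6 and 3140.03 ± 332. Per kb of exon, Cdkn1a lay below Cdkn1b in all 3 Control libraries, at 151 to 184 against 409 to 436. In Ogg1Tg libraries Cdkn1a was at 845, 536 and 413 per kb and Cdkn1b at 516, 596 and 477, so Cdkn1a was above Cdkn1b in replicate 1 alone.

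Cell division genes were called in neither direction: of 22, limma, edgeR and DESeq2 called 0, and 0 were higher and 1 lower at an unadjusted p under 0.05 in limma. Pcna, the replication clamp that binds p21 and Gadd45 proteins, measured 635 ± 105 and 596 ± 4.40, and Tyms, thymidylate synthase, 7908 ± 475 and 7721 ± 416 (SD, n = 3). The list's median was 0.18, and -0.08 without Ogg1Tg replicate 3. Of 22 Bcl2 family and caspase genes limma and edgeR called 0 and DESeq2 1, with 2 higher and 3 lower at an unadjusted p under 0.05 in limma. Mcl1, which blocks apoptosis, measured 6326 ± 77.5 and 6209 ± 145, and Cycs, cytochrome c, 15042 ± 1268 and 10427 ± 3141 (limma adjusted p = 0.39).

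Of 12 genes for p38 and JNK kinases and partners of Gadd45 proteins, limma and edgeR called 0 and DESeq2 1, with 0 higher and 2 lower at an unadjusted p under 0.05 in limma. Mapk14, which encodes p38 alpha, measured 6805 ± 405 and 4658 ± 990.2 (limma adjusted p = 0.25), and Map2k3, an upstream kinase of p38, 5277 ± 676 and 4568 ± 1397 (SD, n = 3).

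Genes of the ATF4 and CHOP stress response, several of which carry the Gadd or DNA damage inducible name, made up another list. Of 12, 5 rose, 0 fell and 7 did not pass limma, with a median log2 fold change of 0.78. The list was drawn up with the rise of several of its genes already known, so its count is no independent evidence. Gdf15, a secreted stress hormone, Asns, asparagine synthetase, Trib3, a stress pseudokinase, and Sesn2 had log2 fold changes of 5.11, 4.85, 4.32 and 3.16 (limma adjusted p from 2.66e-05 to 0.0023). The remaining one, named after its values were seen, was Chac1, a glutathione-degrading enzyme, at 1187, 1388 and 1407 in Control and 3897, 3795 and 3121 in Ogg1Tg libraries (limma adjusted p = 0.00223). Gdf15 had 2, 6 and 3 reads in the Control libraries, so the size of its change rests on few Control reads. Gdf15 and Trib3 were not called without Ogg1Tg replicate 3 when the filter on low values used all 6 libraries.

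The gene whose older name is Gadd153, Ddit3, which encodes CHOP, measured 420 ± 48.2 in Control and 684 ± 154 in Ogg1Tg muscle (SD, n = 3, limma adjusted p = 0.21). Ppp1r15a, once named Gadd34, a phosphatase subunit that restores translation, measured 1158 ± 189 and 1283 ± 331 (limma adjusted p = 0.85). These 2 were chosen for mention after their values were seen.

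None of 19 genes of denervation and atrophy was called with limma or edgeR, and DESeq2 called 3, all of them higher. At an unadjusted p under 0.05 in limma, 3 were higher and 2 lower. Of the 19, 12 had a log2 fold change above 0, as had 47.2% of all genes tested, and the list's median was 0.13. The 2 genes with the highest mean, given next, both had lower means in Ogg1Tg muscle, unlike most of the list. The perinatal myosin Myh8 measured 130981 ± 28540 and 99129 ± 24848 (limma adjusted p = 0.66), and the ubiquitin ligase gene Fbxo32 26599 ± 4220.1 and 16648 ± 5744 (SD, n = 3, limma adjusted p = 0.37). Reads of myosin heavy chains, which are near-identical in parts, may have been split between them. The groups did not overlap for 8 of the 19, 6 of them higher in Ogg1Tg muscle, against 18.3% of all genes tested.

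**Figure D4:**
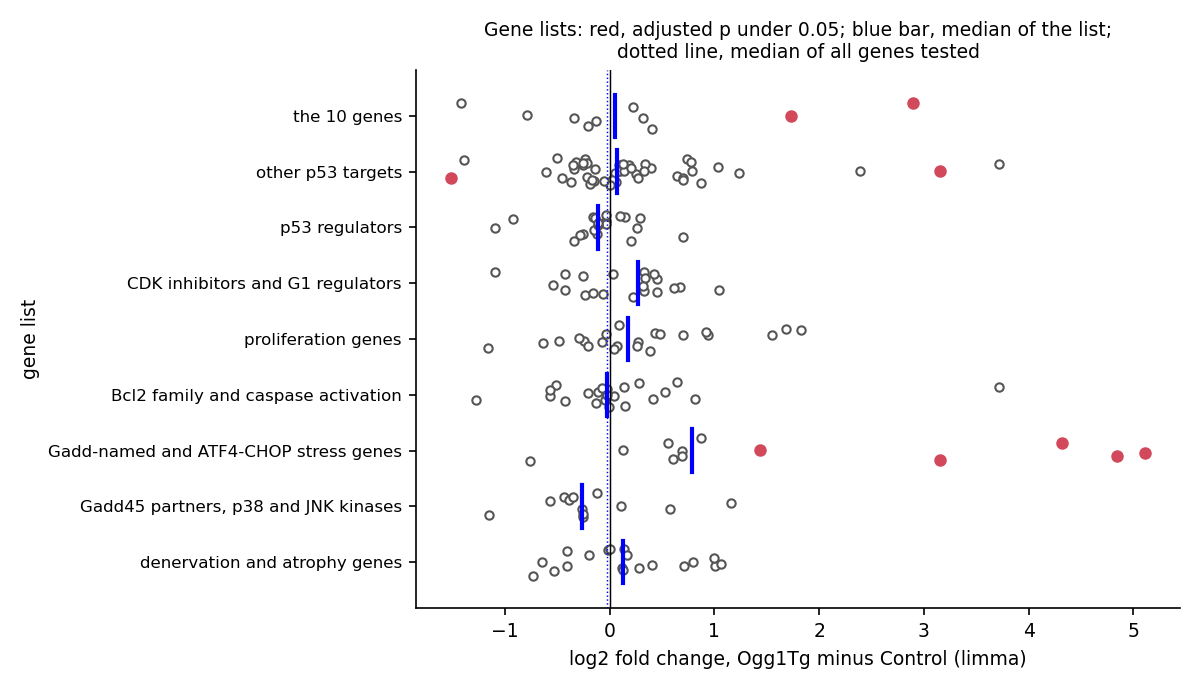
Each point is a gene, placed by its log2 fold change of Ogg1Tg minus Control from limma (horizontal axis) within its list (vertical axis); red points passed an adjusted p of 0.05, blue bars are list medians and the dotted line is the median of all genes tested. The medians are 0.05 for the 10 genes, 0.07 for the other p53 targets and 0.78 for the ATF4 and CHOP stress genes, which hold 5 of the called points.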

How the data were processed

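Total RNA of 6 gastrocnemius samples was made into NuGen Ovation Universal libraries, as the labels' protocols state. Trimmomatic, SAMtools, HTSeq and the build mm10 appear in the submitters' processing notes. Aligner, annotation and strand setting were not given in the sources used here. Although named FPKM, the deposited signal is each gene's reads over 1 library-wide factor, within 0.01 of whole reads for 100% of values (in Ogg1Tg replicate 3 the step of 1.01 is so close to 1 that this is less distinctive). The design kept limma on the deposited signal and put tests on recovered reads among the alternatives. Entries without a symbol, 1824 of 37315, took 2.38% to 3.54% of the reads and did not enter any test.

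Genes with a mean of at least 1 were tested on log2(value + 1), which understates folds of low genes, with limma 3.58.1 (R 4.3.3, variance trend, two-sided, Benjamini-Hochberg). Alternatives used edgeR 4.0.16, DESeq2 1.42.0, other filters, pseudocounts and scalings, and each library left out. P-values reflect the spread between these 6 mice. No 2 libraries agreed within sampling noise (lowest chi-square per gene 13.9). On simulated data over 22451 genes, 200 of them changed, limma recovered 85% of 4-fold and 37% of 2-fold changes and made 18 false calls. On the same data edgeR made 19 false calls. DESeq2 made 62, and recovered 93% of 4-fold and 62% of 2-fold changes, so its higher counts come with more false calls. The changes were placed only in genes above a floor of reads, so these rates do not cover genes with few reads. The 10 genes and all lists were chosen with earlier results of these data known. Genes were named by rule: the 10 genes, up to 4 called genes per list or else the 2 with the highest mean, and the 5 genes most like Cdkn1a and Gadd45a, leaving out predicted and Rik names; others are marked as chosen after their values were seen. Positions and exon lengths are from GENCODE M21. A marker gene is not reported here and entered no marker sum.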

Additional observations from a re-analysis of the deposited data

How the results depend on the processing

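Of the 10 genes, Mdm2 alone changed sign over 17 alternative fits, with quantile normalization and with edgeR without Ogg1Tg replicate 3. The count of all genes called was 127; it was 46 without a variance trend, 622 with DESeq2, 28 without Ogg1Tg replicate 3 with the filter on all 6 libraries, and 402 with edgeR without that library, a fit chosen after the data were seen. With 1 library left out it ran from 35 to 425. For the 10 genes the count called, which the choice of the set fixes at 2 and which supports nothing, was 0 without a variance trend, 0 without Ogg1Tg replicate 3 with the filter on all 6, and 1 to 2 with 1 library left out. Of the other p53 targets 2 were called, against 1 without a variance trend, 5 with DESeq2, 1 without Ogg1Tg replicate 3 with the filter on all 6, 4 with edgeR without that library, and 1 to 3 with 1 library left out; the cause was not tested. The p53 element without a spacer was in 0 windows of the 10 genes, in 1 with a spacer and in 2 with at most 1 base off. With the replicate block 102 genes were called, and 2 of the 10 genes and 2 of the other targets as in the fit without it. Deviations of same-numbered libraries from their group means correlated at r of -0.053, -0.0051 and 0.031. The labels do not say what the numbers mark, and these values cannot settle whether the mice were paired. Wider windows around the start sites were not run, since no genome sequence was used here. Median-of-ratios rescaling moved the median of all genes by 0.05 log2 units, quantile normalization by 0.003 and edgeR on recovered reads by 0.09.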
